A study of Mus musculus with 6 samples.

Results

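The magnesium transport genes Trpm6, Trpm7, Cnnm1, Cnnm2, Cnnm3, Cnnm4, Slc41a1, Slc41a2, Mrs2 and Magt1 were described in the enamel organ, the epithelial tissue whose ameloblasts lay down and then harden tooth enamel. They were chosen by name as magnesium channels and transporters, and all 10 were found by gene symbol among the 46603 genes of the deposited tables. RNA came from primary cells of the enamel organ of the lower incisor in C57BL/6 mice. A Stim1/2 knockout group (called DKO) was represented by replicates 1, 3 and 4, and a wild-type group (WT) by replicates 1, 2 and 3, which makes 3 libraries per group. STIM1 and STIM2 sense calcium in the endoplasmic reticulum and open plasma membrane calcium channels once that store runs down (store-operated calcium entry), and the series title asks what this route does for ameloblasts and enamel. The labels give neither the age of the mice, the way in which the genes were deleted, nor whether each library came from its own animal, so every p-value here reflects the spread among these libraries alone, which may be technical.

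Magnesium is held at a steady level inside cells by channels that let it in, by exchangers and cyclin M (CNNM) proteins that are linked to its export, and by a separate channel into mitochondria. In enamel it can take the place of calcium in the mineral. CNNM4 bears on this tissue directly, since loss of CNNM4 in humans causes Jalili syndrome, in which cone-rod dystrophy of the retina comes with defective enamel.

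Gene levels are given in counts per 1e6 with TMM scaling (CPM), except where levels of different genes are compared, for which the deposited FPKM (fragments scaled to transcript length and library size) were used. Libraries held from 18609759 to 22829411 counts. In the DKO libraries Stim1 was at 125 ± 18.1 CPM against 422 ± 65.1 CPM in WT, and Stim2 at 122 ± 15.8 against 261 ± 42.6 CPM (SD, n = 3 each), with no overlap between the groups (exact two-sided permutation p = 0.1 for each, the smallest that 3 against 3 libraries allow). The enamel matrix genes that define secretory ameloblasts were abundant in all 6 libraries, with Ambn from 37564 to 90060 CPM and Amelx from 28849 to 81133 CPM. The list of 7 secretory ameloblast markers also held Enam, Mmp20, the transcription factors Dlx3 and Sp6, and Dspp, known mainly from dentin, and its summed level was from 70196 to 139661 CPM in WT and from 116852 to 181515 CPM in DKO. As these are bulk samples, fewer cells of a type and less RNA per cell cannot be told apart. Xist was above 100 CPM in WT 1, WT 2 and DKO 1 and not in the other 3 libraries, so sex was partly confounded with genotype.

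In the WT enamel organ the 10 genes spanned levels per length from near absence to the upper tail of the transcriptome. Trpm7 was highest at 208 ± 33.7 FPKM and ranked 350th among the 13354 genes with a WT mean of 1 FPKM or more, in the top 2.62%. Next came Cnnm4 at 39.8 ± 2.81, Slc41a2 at 33.8 ± 5.98 and Cnnm2 at 29.5 ± 3.45 FPKM (SD, n = 3 each), and the WT ranges of neighbours among these 3 overlapped. Trpm7 was 5.24-fold above Cnnm4, and their ranges did not overlap. A lower tier held Cnnm3 at 14.5 ± 0.0546, Magt1 at 13.3 ± 2.30, Mrs2 at 12.9 ± 1.51 and Slc41a1 at 9.60 ± 0.575 FPKM (SD, n = 3 each). In that tier Cnnm3 overlapped Magt1 and Magt1 overlapped Mrs2, while Slc41a1 lay below Mrs2 in every WT library. The order within the lower tier depended on the measure, because CPM per kilobase of annotated exon placed Magt1 and Slc41a1 above Cnnm3 and Mrs2, while both measures placed Trpm7, Cnnm4, Slc41a2 and Cnnm2 at ranks 1 to 4 in that order. Trpm6 and Cnnm1 were close to the detection limit. The order of the means was the same in DKO as in WT, except that Cnnm1 was listed at 0 in all 3 DKO libraries.

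**Figure D1:**
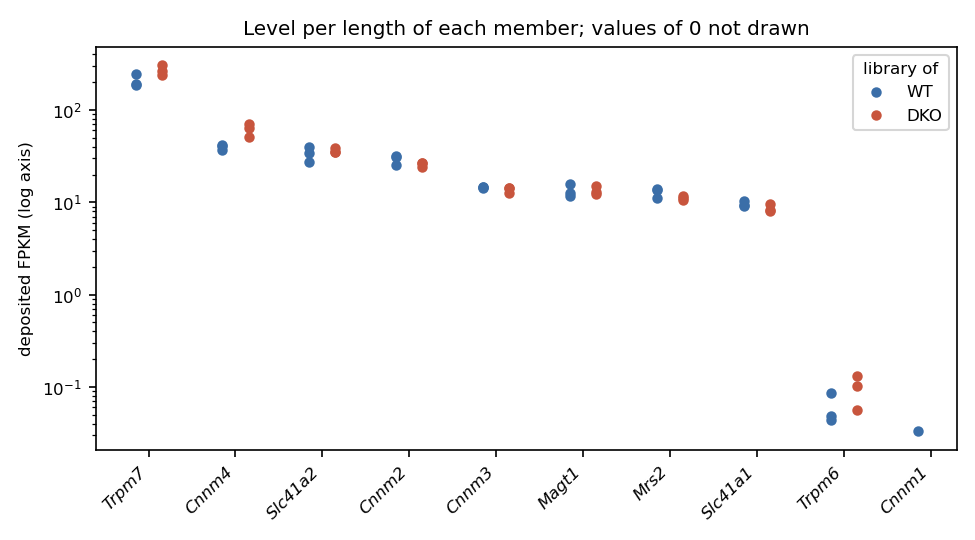
Deposited FPKM of each magnesium transport gene (log axis) in the 3 WT and 3 DKO libraries, 1 point per library, ordered by the WT mean; libraries listed at 0 (5 of 6 for Cnnm1) are not drawn. Trpm7 stands alone at the top, with WT values from 186 to 247 FPKM, and Trpm6 and Cnnm1 lie below 0.2 FPKM.

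The comparison of DKO with WT asked whether any of these genes depended on the Stim genes. By edgeR's quasi-likelihood test, adjusted by Benjamini-Hochberg over 14721 genes, 0 of the 9 members tested were called higher and 0 lower, against 0.734% and 0.306% of all tested genes (1.04% in both directions). Cnnm1 was too low to be tested. At an unadjusted p below 0.05 there was 1 member, Cnnm4, beside 18% of all tested genes. The DESeq2 Wald test called 1 member, Cnnm4, beside 826 of the 14948 genes to which it gave an adjusted p (5.53%), and limma on FPKM called 0, beside 0.577% of its 13336 genes. Cnnm4 was also the single member whose groups did not overlap in CPM, a condition met by 23.3% of all tested genes (11.4% with DKO above WT and 11.8% with DKO below). The log2 fold changes of the 9 members ran from -0.24 to 0.64 with a median of 0.05, beside a median of -0.01 over all tested genes. Leaving out 1 library moved the members' median to between -0.02 (without WT 3) and 0.15. Of the 9 members, 6 had an unadjusted 95% interval of the fold change that lay wholly inside a 1.5-fold change in either direction. For the other 3 (Trpm6, Trpm7 and Cnnm4) the upper bound went past 1.5-fold.

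**Figure D2:**
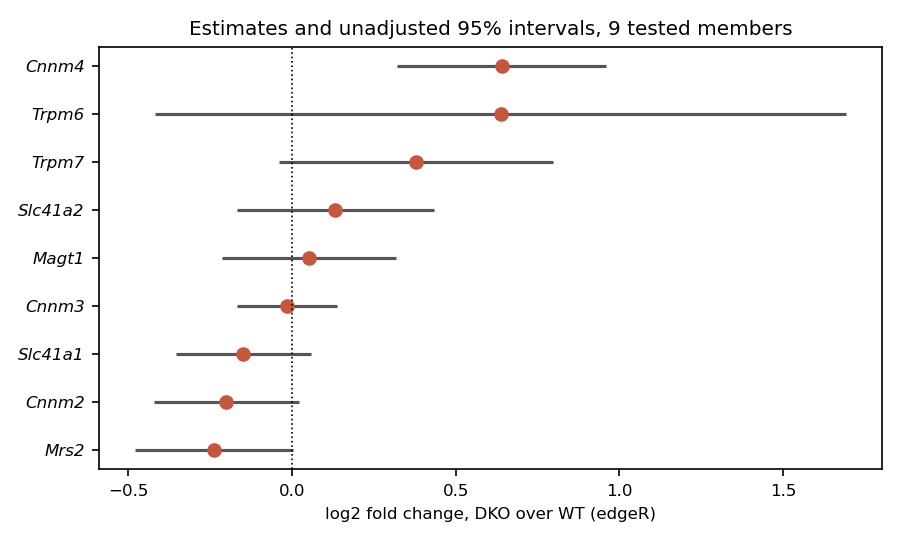
Log2 fold change of DKO over WT from edgeR for the 9 tested members (points) with unadjusted 95% intervals (lines). The interval of Cnnm4 is the one that does not include 0, and its adjusted p was 0.0783.

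TRPM7 joins a channel for magnesium, calcium and zinc to a protein kinase in 1 polypeptide and is found in most cell types. Trpm7 (ENSMUSG00000027365, GRCm38 chromosome 2, 126791565 to 126876230, minus strand) stood at 1344, 1774 and 1251 CPM in WT 1, 2 and 3. In DKO 1, 3 and 4 it stood at 1648, 2240 and 1798 CPM. The DKO mean was thus higher, but WT 2 lay above DKO 1 and the groups overlapped. The fold change was 1.30 (unadjusted 95% interval 0.974 to 1.74), or 0.38 on the log2 scale (SE 0.18; adjusted p = 0.319 in edgeR). The libraries with the most Trpm7 in each group, WT 2 and DKO 3, also had the highest sums of secretory ameloblast markers, at 139661 and 181515 CPM. Their sums of stratum intermedium and papillary markers were the highest too, at 6895 and 7303 CPM. Elsewhere the order differed, since WT 1 had more Trpm7 than WT 3 but a lower secretory sum (70196 against 109625 CPM). The part of these markers in the Trpm7 levels was not tested. Among libraries with Xist above 100 CPM the DKO to WT ratio of Trpm7 was 1.06 (2 WT, 1 DKO), and among the others 1.61 (1 WT, 2 DKO).

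TRPM6 is the closest relative of TRPM7 and is best known for magnesium uptake in the kidney and the colon. Trpm6 (ENSMUSG00000024727, chromosome 19, 18749983 to 18892511, plus strand) had 14, 7 and 8 counts in WT 1, 2 and 3, and 14, 8 and 17 counts in DKO 1, 3 and 4. With so few counts the fold change of 1.56 had an interval from 0.748 to 3.24 (edgeR adjusted p = 0.511), so a difference was not detectable at this depth. Per length, Trpm7 was from 2031-fold to 5397-fold more abundant than Trpm6 across the 6 libraries, so that Trpm7 made up at least 99.95% of the summed FPKM of the pair.

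The other TRPM channels, a list of 6 genes, were also far below Trpm7 in WT. The nearest was Trpm4, a channel opened by calcium that itself conducts sodium and potassium, at 5.99 ± 0.979 FPKM (SD, n = 3), 34.7-fold below Trpm7. Trpm3 followed at 2.40 ± 0.722 FPKM, and Trpm1, Trpm2, Trpm5 and Trpm8 had WT means below 1 FPKM. Of the 5 of these genes that were tested, edgeR called 0 and DESeq2 0, beside 1.04% and 5.53% of all genes they tested. An unadjusted edgeR p below 0.05, which 18% of all tested genes had, was found for 1 of the 5. This was Trpm4, at 23.2, 27.8 and 32.7 CPM in WT 1, 2 and 3 and at 22.6, 17.4 and 22.6 CPM in DKO 1, 3 and 4. Every DKO library lay below every WT library, by a small margin (log2 fold change -0.42, SE 0.15, edgeR adjusted p = 0.217).

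CNNM4 sits in the basolateral membrane of epithelia such as the gut, where it takes part in moving magnesium out of the cell. Cnnm4 (ENSMUSG00000037408, chromosome 1, 36471620 to 36508764, plus strand) stood at 163, 189 and 184 CPM in WT 1, 2 and 3. In DKO 1, 3 and 4 it stood at 223, 299 and 313 CPM. Every DKO library was above every WT library, and DKO 1 was the closest to WT. The fold change was 1.56 (unadjusted 95% interval 1.25 to 1.94) and the log2 fold change 0.64 (SE 0.14), which missed the threshold after adjustment over all genes (edgeR adjusted p = 0.0783). The call turned with the analysis, since Cnnm4 passed by the DESeq2 Wald test (adjusted p = 0.000545), by edgeR without a filter on low counts (0.0155) and by edgeR without DKO 1 (0.0357), and over all alternatives the adjusted p ran from 0.000545 to 0.233. The direction was the same in all 17 alternatives, with log2 fold changes from 0.54 to 0.78. These alternatives refit the same libraries, and with no overlap between the groups they had little room to turn the direction. Among libraries with Xist above 100 CPM the DKO to WT ratio was 1.27 (2 WT, 1 DKO), and among the others 1.67 (1 WT, 2 DKO).

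Summed levels of 5 of 12 marker lists for cell types of the tooth and its surroundings separated the 3 DKO from the 3 WT libraries, as Cnnm4 did. For the odontoblast and osteoblast list this did not hold without Ibsp. All 9 tested leukocyte markers and all 7 endothelium markers had a log2 fold change above 0, with summed levels from 131 to 182 CPM in WT and 192 to 320 CPM in DKO for leukocytes, and from 182 to 233 and 253 to 288 CPM for endothelium. All 7 dental epithelium markers lay below 0, with sums from 9631 to 10929 CPM in WT and 7448 to 7653 CPM in DKO, as did all 7 tested of 9 oral keratinocyte markers, with sums from 266 to 463 and 71.9 to 125 CPM. EdgeR called Krt6a of the oral keratinocyte list lower, and no gene of these 4 lists was at 0 in all libraries. Of 8 maturation-stage ameloblast markers 5 lay above 0 and 3 below, Car6 was called higher by edgeR, and their sums overlapped, from 21243 to 28241 CPM in WT and 23330 to 27888 CPM in DKO. Single genes of this list did separate the groups, 3 with DKO above WT (Car6, Amtn and Car2) and 2 with DKO below (Wdr72 and Odam). No overlap in CPM was met by 23.3% of all tested genes. The sums of 6 odontoblast and osteoblast markers lay higher in DKO, from 361 to 398 CPM in WT and 423 to 513 CPM in DKO. This separation needed Ibsp, at 186, 41.1 and 54.7 CPM in DKO 1, 3 and 4 and at most 34.2 CPM in WT. Ibsp was not called (edgeR adjusted p = 0.155), and without it the sums of the list overlapped. In that list 4 lay above 0 and 2 below, and edgeR called Bglap2 lower, a gene whose reads are uncertain because of its close copy Bglap. Bglap was also below WT in every DKO library and was not called. It ran from 5.93 to 19.6 CPM in WT and 0.917 to 5.12 CPM in DKO (log2 fold change -1.81, edgeR adjusted p = 0.192). The 7 stratum intermedium and papillary markers had overlapping sums, from 5294 to 6895 and 5985 to 7303 CPM. Beside the 23.3% of all tested genes without overlap between the groups, 5 of the 7 markers did not overlap. Of these, Gjb2, a gap junction gene, was called higher (3.15-fold, edgeR adjusted p = 0.0432), and Notch1, Notch2, Jag1 and Hes1 lay below WT and were not called. All 10 mesenchyme markers lay above 0, with overlapping sums from 6816 to 11246 CPM in WT and 10593 to 13157 CPM in DKO. The sums of the erythroid, skeletal muscle, and nerve and glia lists overlapped, and Nefl of the last was at 0 in all libraries. The part of these cell types in the level of Cnnm4 was not tested.

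Cnnm3 (ENSMUSG00000001138, chromosome 1, 36511867 to 36528237, plus strand) is the next-door paralog of Cnnm4, with 3102 bases between the end of the Cnnm4 gene and its start on the same strand. It stood at 39.2, 40.0 and 38.1 CPM in WT 1, 2 and 3, and at 39.5, 38.8 and 37.7 CPM in DKO 1, 3 and 4. These 6 values were nearly level, and the fold change of 0.989 had the narrowest interval of the tested members, 0.889 to 1.10 (edgeR adjusted p = 0.923). In FPKM, Cnnm3 ran from 14.4 to 14.5 in WT and from 12.6 to 14.3 in DKO, so that on this scale the groups did not overlap. The RefSeq promoters of Trpm7, Cnnm4 and Cnnm3 are shown because Trpm7 and Cnnm4 were the most abundant members per length and because Cnnm4 and Cnnm3 are neighbours with different fold changes, a difference that was not tested. Each is the 250 bases before the RefSeq start, 5′ to 3′ on the gene's strand, GRCm38.p6, and capitals mark matches on either strand to TGACGTCA (the cAMP response element), CACGTG (an E-box), GGAAA (the core of NFAT sites) or GGGCGG (the GC box).
Trpm7 promoter, chr2:126876262-126876511, minus strand: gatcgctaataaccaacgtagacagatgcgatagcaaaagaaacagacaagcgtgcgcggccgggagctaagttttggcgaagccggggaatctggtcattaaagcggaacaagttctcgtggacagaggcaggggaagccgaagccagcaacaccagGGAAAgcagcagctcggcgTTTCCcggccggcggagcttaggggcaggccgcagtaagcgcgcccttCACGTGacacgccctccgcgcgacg
Cnnm4 promoter, chr1:36471347-36471596, plus strand: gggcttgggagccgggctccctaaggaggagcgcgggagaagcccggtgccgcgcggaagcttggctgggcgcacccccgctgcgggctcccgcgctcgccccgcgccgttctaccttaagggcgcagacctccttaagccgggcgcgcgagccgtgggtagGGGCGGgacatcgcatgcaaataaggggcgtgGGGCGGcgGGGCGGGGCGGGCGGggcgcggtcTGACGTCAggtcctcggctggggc
Cnnm3 promoter, chr1:36511617-36511866, plus strand: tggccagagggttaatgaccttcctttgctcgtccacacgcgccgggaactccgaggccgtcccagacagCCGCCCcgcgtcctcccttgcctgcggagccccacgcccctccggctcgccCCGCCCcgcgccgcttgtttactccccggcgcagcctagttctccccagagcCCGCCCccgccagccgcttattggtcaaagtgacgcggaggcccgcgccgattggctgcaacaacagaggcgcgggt

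The Cnnm4 window held 1 cAMP response element, which 1.55% of 32851 promoter windows of the same length hold, and 5 GC boxes, some overlapping each other, where 32.7% of windows hold at least 1. The Cnnm3 window held 3 GC boxes, and the Trpm7 window 1 E-box (6.02% of windows) and 2 NFAT cores (55.6% of windows). Over the 9 members with a RefSeq promoter, Cnnm4 was the one with a cAMP response element in its window. A match describes letters in the window and is not a measured site.

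CNNM2 is the paralog tied to magnesium reabsorption in the kidney, and its loss lowers blood magnesium in humans. Cnnm2 (ENSMUSG00000064105, chromosome 19, 46761596 to 46880192, plus strand) stood at 119, 116 and 95.2 CPM in WT 1, 2 and 3 and at 98.4, 92.4 and 97.0 CPM in DKO 1, 3 and 4. The DKO values lay below WT 1 and WT 2 but around WT 3, so the groups overlapped. The fold change was 0.870 (interval 0.747 to 1.01, edgeR adjusted p = 0.318). Cnnm1 (ENSMUSG00000025189, chromosome 19, 43440436 to 43497210, plus strand), a paralog known mainly from brain and testis, had 4 counts in WT 3 and 0 in each other library, where 0 counts allow a level of up to 0.127 to 0.161 CPM by counting error alone.

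**Figure D3:**
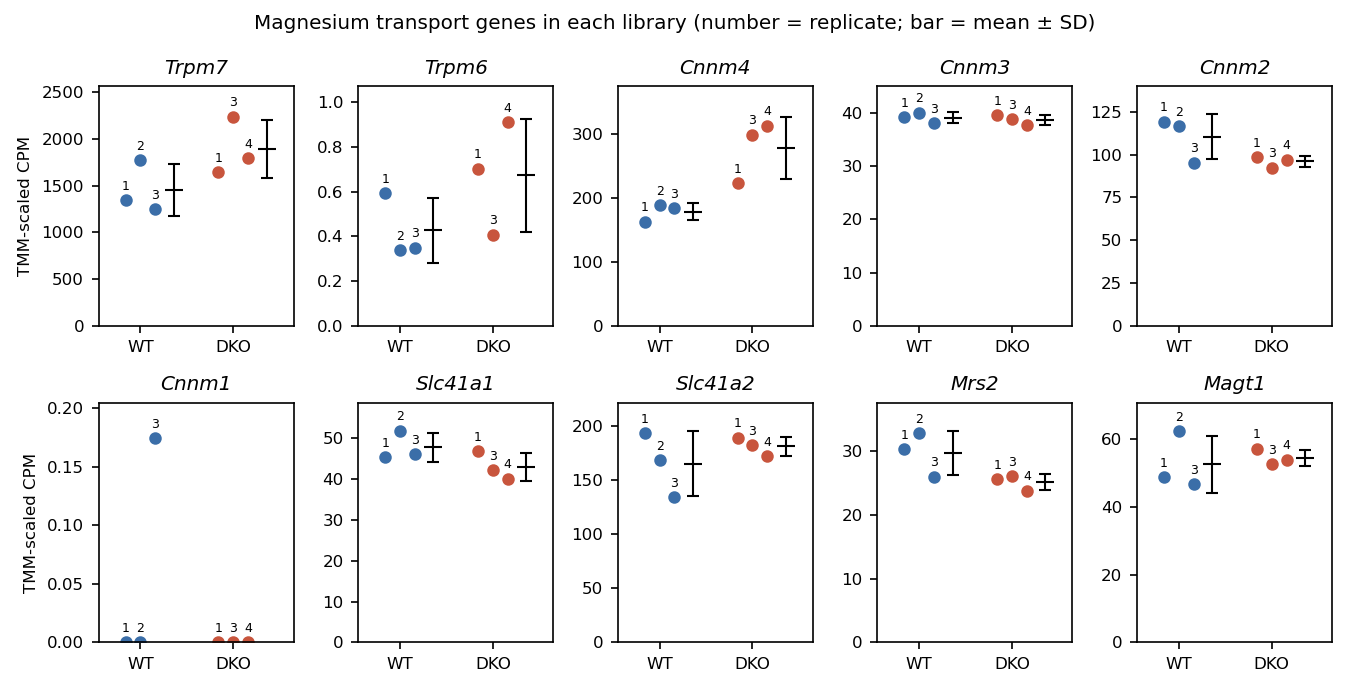
TMM-scaled CPM of the 10 magnesium transport genes, 1 point per library with its replicate number (WT blue, DKO red) and the mean ± SD of 3 libraries beside them, except for Cnnm1. Axes start at 0 and differ between panels. The 3 DKO points of Cnnm4 (223 to 313) lie above its 3 WT points (163 to 189), and the other panels overlap between groups.

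These levels set the make-up of the CNNM family, given as each paralog's share of the summed CNNM FPKM in a library. Cnnm4 held 44.0%, 47.8% and 50.6% in WT 1, 2 and 3, and 55.5%, 62.9% and 64.2% in DKO 1, 3 and 4. Cnnm2 held 35.2 ± 3.55% in WT and 25.5 ± 3.12% in DKO, and Cnnm3 17.3 ± 0.624% and 13.6 ± 1.97% (SD, n = 3 each). No paralog but Cnnm1 overlapped between the groups in its share, and since shares sum to a whole, the lower shares of Cnnm2 and Cnnm3 are in part the higher share of Cnnm4. In CPM, Cnnm2 and Cnnm3 overlapped between the groups and Cnnm4 did not, as did not 23.3% of all tested genes. By CPM per kilobase of exon the share of Cnnm4 was larger, from 53.7% to 60.9% in WT and from 64.7% to 72.4% in DKO, again without overlap. The FPKM ratio of Cnnm4 to Cnnm2 within a library ran from 1.14 to 1.60 in WT and from 1.91 to 2.71 in DKO. The sum of the family was 81.2 to 87.1 FPKM in WT and 92.7 to 109 FPKM in DKO.

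**Figure D4:**
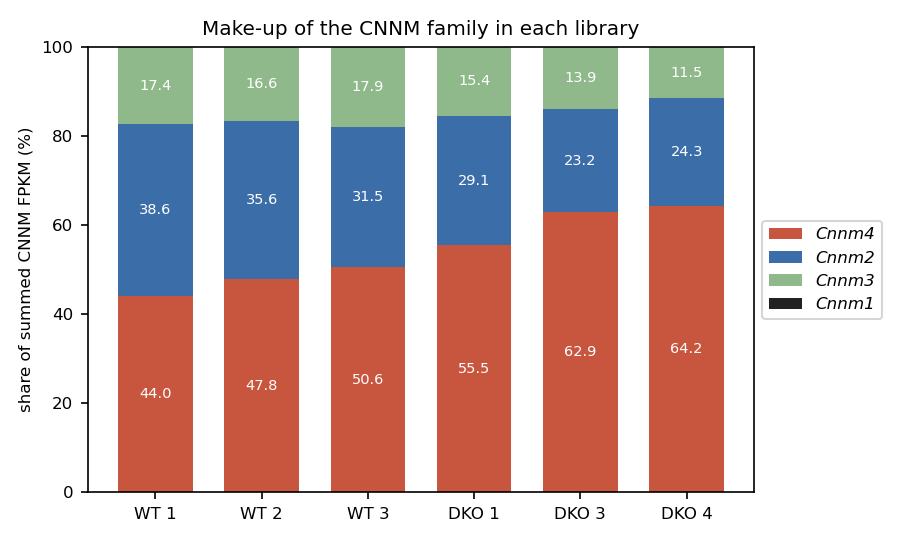
Share of the summed CNNM FPKM held by Cnnm4, Cnnm2, Cnnm3 and Cnnm1 in each library, as stacked bars with the percent printed; Cnnm1 is too small to see. The Cnnm4 share is 44.0% to 50.6% in WT and 55.5% to 64.2% in DKO.

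SLC41A1 exchanges sodium for magnesium at the plasma membrane, and SLC41A2 is a related magnesium transporter. Slc41a1 (ENSMUSG00000013275, chromosome 1, 131827493 to 131848865, plus strand) stood at 45.4, 51.9 and 46.1 CPM in WT 1, 2 and 3 and at 46.8, 42.2 and 40.1 CPM in DKO 1, 3 and 4 (fold change 0.902, interval 0.781 to 1.04). Slc41a2 (ENSMUSG00000034591, chromosome 10, 83230848 to 83337882, minus strand) stood at 193, 168 and 134 CPM in WT and at 189, 182 and 172 CPM in DKO (fold change 1.10, interval 0.889 to 1.35). Both genes overlapped between the groups, and the 3 WT libraries spread more widely than the 3 DKO libraries for Slc41a2. Slc41a2 held 73.1 ± 4.31% of the summed SLC41 FPKM in WT and 75.7 ± 0.269% in DKO, and Slc41a3, the third paralog, 5.78 ± 1.69% and 6.34 ± 0.371% (SD, n = 3 each). The make-up of this family overlapped between the groups.

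Of the members in organelles, MRS2 is the magnesium channel of the mitochondrial inner membrane. Mrs2 (ENSMUSG00000021339, chromosome 13, 24987483 to 25020379, minus strand) stood at 30.3, 32.9 and 26.06 CPM in WT 1, 2 and 3 and at 25.6, 26.14 and 23.8 CPM in DKO 1, 3 and 4. The groups met at DKO 3 and WT 3, and the fold change of 0.847 (log2 fold change -0.24, SE 0.10, edgeR adjusted p = 0.280) was the lowest of the tested members. Its level is uncertain, since 32.4% of its annotated exon bases are shared with Gpld1 on the other strand and the library kit does not mark strand. MAGT1 was first described as a magnesium transporter and is a subunit of the oligosaccharyltransferase, which attaches sugars to proteins in the endoplasmic reticulum. Magt1 (ENSMUSG00000031232, chromosome X, 105968084 to 106011906, minus strand) stood at 48.7, 62.3 and 46.7 CPM in WT and at 57.1, 52.5 and 53.9 CPM in DKO. WT 2 was the highest and WT 3 the lowest library, so all DKO values lay within the WT range (fold change 1.04, interval 0.863 to 1.25, edgeR adjusted p = 0.848).

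The wider pathway was read from lists of other genes. Of 14 tested members of a list of 16 other magnesium transport genes, edgeR called 0 in either direction, 5 had an unadjusted p below 0.05 (18% of all tested genes did), and DESeq2 called 1 (5.53% of its genes). The list's median log2 fold change was 0.07, beside -0.01 over all tested genes. The gene that DESeq2 called was Zdhhc13, a palmitoyltransferase reported to carry magnesium. It stood at 60.8, 72.4 and 67.7 CPM in WT 1, 2 and 3 and at 88.6, 124 and 92.4 CPM in DKO 1, 3 and 4. Its groups did not overlap (log2 fold change 0.60, SE 0.14, edgeR adjusted p = 0.0905, DESeq2 adjusted p = 0.00339), and it also passed in edgeR without a low-count filter (0.0155) and with the replicate number as a block (0.0464). That block leaves WT 2 and DKO 4 without a partner, so its comparison rests on the remaining libraries. Nipal4, of the NIPA transporter family, had a WT mean of 3.97 ± 0.377 CPM and a DKO mean of 6.33 ± 1.54 CPM (SD, n = 3 each, edgeR adjusted p = 0.176). Tmem94, described as bringing magnesium into the endoplasmic reticulum, stood at 241, 164 and 257 CPM in WT and at 157, 173 and 155 CPM in DKO. WT 2 lay among the DKO values of Tmem94 (log2 fold change -0.45, SE 0.16, edgeR adjusted p = 0.211), and without WT 2 the gene was called lower (-0.62, adjusted p = 0.0246). That fit called 335 of 15046 genes, against 153 of 14721 in all libraries. With another library left out the edgeR adjusted p of Tmem94 was up to 0.447. Of the 3 tight junction genes in the list, Cldn16 had 0 counts in all libraries and Cldn19 was too low to test. Cldn10 stood at 49.6, 91.3 and 67.7 CPM in WT and at 59.4, 57.9 and 65.6 CPM in DKO, so that its groups overlapped (edgeR adjusted p = 0.663).

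The carriers that exchange ATP-Mg for phosphate across the mitochondrial inner membrane gave 3 tested genes of 4, all 3 of a kind that binds calcium, while Slc25a41, a shorter carrier, was too low to test. EdgeR and DESeq2 called 0 of them, beside 1.04% and 5.53% of all genes they tested, and 2 had an unadjusted p below 0.05 (18% of all tested genes did). Slc25a24 had a WT mean of 40.4 ± 7.66 CPM and a DKO mean of 31.1 ± 2.86 CPM, Slc25a25 means of 15.4 ± 0.921 and 18.4 ± 1.45 CPM, and Slc25a23 means of 48.4 ± 3.80 and 49.7 ± 6.83 CPM (SD, n = 3 each). The differences of the first pair thus pointed in opposite directions, with edgeR adjusted p of 0.228 and 0.257.

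Among 15 genes that regulate magnesium transport, 11 were tested, and edgeR and DESeq2 called 0, beside 1.04% and 5.53% of all genes they tested. An unadjusted p below 0.05 was found for 2 of the 11, near the 18% of all tested genes. Fxyd2, a subunit of the sodium pump, was rare at 3.14, 0.727 and 1.87 CPM in WT and 0.602, 0.561 and 0.749 CPM in DKO (adjusted p = 0.184 in edgeR). Its edgeR adjusted p fell to 0.0482 when WT 2 was left out and was up to 0.375 with another library left out. Egfr, the receptor for epidermal growth factor, had a WT mean of 86.4 ± 8.94 CPM and a DKO mean of 74.5 ± 2.79 CPM (SD, n = 3 each, edgeR adjusted p = 0.254). Arl15, a small GTPase that binds CNNM proteins, stood at 40.3, 21.8 and 48.9 CPM in WT and at 26.6, 20.6 and 26.1 CPM in DKO. WT 2 was the WT library within the DKO range, and Arl15 passed without it (log2 fold change -0.60 with adjusted p = 0.293 in all libraries, -0.87 with 0.0330 without WT 2). The fit without WT 2 called 335 of 15046 genes, against 153 of 14721 in all libraries. With another library left out the edgeR adjusted p of Arl15 was up to 0.559. Umod, a gene of the kidney tubule, had 0 counts in all libraries.

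The genes listed for the oligosaccharyltransferase had 10 of 10 tested members with a log2 fold change above 0, beside 7168 of all 14721 tested genes. All 10 lay above 0 under each of 4 scalings, which refit the same libraries. The differences were small, with a median of 0.14 and a range from 0.04 to 0.30. Their summed levels overlapped, from 1178 to 1394 CPM in WT and 1378 to 1424 CPM in DKO. EdgeR and DESeq2 called 0 of these genes, beside 1.04% and 5.53% of all genes they tested. An unadjusted p below 0.05 was found for 2 of the 10, near the 18% of all tested genes. Krtcap2 had a WT mean of 36.2 ± 0.218 CPM and a DKO mean of 40.9 ± 1.59 CPM, Ddost means of 137 ± 24.5 and 169 ± 10.4 CPM, and Ost4 means of 19.3 ± 0.992 and 21.9 ± 0.592 CPM (SD, n = 3 each). The edgeR adjusted p of these 3 genes were 0.224, 0.274 and 0.314.

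The genes most like Trpm7 and Cnnm4 across the 6 libraries were found among 11819 other protein-coding genes with a mean of at least 50 counts. For Trpm7 these were Lpgat1, an acyltransferase of phospholipids, Nat14, and Emc3, a subunit of a complex that inserts membrane proteins in the endoplasmic reticulum, each with a Pearson correlation of log2 CPM from 0.996 to 0.997. Lpgat1 stood at 245, 340 and 229 CPM in WT 1, 2 and 3 and at 328, 449 and 356 CPM in DKO 1, 3 and 4, with WT 2 and DKO 3 highest as for Trpm7. For Cnnm4 they were Tpst2, which adds sulfate to tyrosines of secreted proteins, Tacr1, the receptor for substance P, and Rnf149, a ubiquitin ligase, with correlations from 0.993 to 0.997. Rnf149 stood at 31.9, 35.3 and 33.8 CPM in WT and at 41.7, 56.2 and 54.6 CPM in DKO, with DKO 1 the closest to WT as for Cnnm4. Correlations of at least 0.95 were reached by 69 genes for Trpm7 and by 105 for Cnnm4. These are descriptions over 6 libraries that share the group difference and the differences in cell types.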

How the data were processed

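RNA of 6 libraries was sequenced from a TruSeq v2 preparation, per the labels' protocols. For each library the authors deposited a table of raw read counts by Ensembl gene. They also deposited FPKM values, in Cufflinks format per the file headers. Per the submitters' processing notes the tools included Trimmomatic 0.32, HTSeq and Cufflinks 2.2, and the build was GRCm38. Which aligner, annotation release and strand setting were used is not given in the sources used here. No row of the count tables lacked a gene.

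Knockout and wild-type counts were tested in edgeR 4.0.16 (R 4.3.3) with its quasi-likelihood method, TMM scaling, filterByExpr and no covariate, and an adjusted p below 0.05 is a call. A standard error is the log2 fold change over the square root of F, and 95% intervals use the test's degrees of freedom. Positions, exon lengths and overlaps came from GENCODE vM21 (GRCm38, 1-based), and promoters from RefSeq GRCm38.p6 (9 of 10 members matched by symbol). Tmem94 and Rack1, listed under other symbols in the files, were matched by gene ID. The 9 genes with a failed or capped FPKM estimate in any library were left out of FPKM ranks and tests. Genes whose ID was repeated among the deposited FPKM values (66 repeated entries) were also left out of the ranks.

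The named genes are the members, Stim1, Stim2, up to 3 genes of each pathway list by adjusted p, and the 3 genes most like Trpm7 and Cnnm4, and genes named beyond these, such as the remaining TRPM channels, the claudins, Slc25a41 and single marker genes, were chosen after their values were seen. Members and lists were chosen with earlier results of these data known. The alternatives changed the scaling (upper quartile, DESeq2's size factors or the library total), the filter (none, or means of 50 counts or more), the tool (DESeq2 1.42.0) and the model (replicate number as a block, or a covariate for Xist above 100 CPM), or left out each library. Limma 3.58.1 was also run, with its trend option, on the deposited FPKM after log2(FPKM + 1), or with a pseudocount of 0.1, for genes reaching 1 FPKM in 3 libraries or for all genes above 0. The tests were also run on counts simulated with the means and dispersions of these data, and the outcome is not given here. Between libraries of a group the Pearson correlation of log2 CPM was 0.984 to 0.989, and every pair differed beyond sampling noise (lowest chi-square/df 14.1). The reads carry no molecular identifiers, so limits from counts cover counting error only.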

Additional observations from a re-analysis of the deposited data

How the results depend on the processing

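The directions of Trpm6, Trpm7, Cnnm2, Cnnm4, Slc41a1, Slc41a2 and Mrs2 were the same under every alternative that could test them (14 for Trpm6, 17 for the others), and Cnnm4 was the one member called by any. The number of members called higher was 1 in place of 0 without a low-count filter, by DESeq2 and without DKO 1 (0 to 1 over the fits that leave out a library), and 0 members were called lower under any alternative. The log2 fold change of Cnnm3 changed sign to 0.0067 with upper-quartile scaling, 0.019 with the replicate block and 0.0012 with the Xist term, and with 1 library left out it was -0.030 to 0.0029, above 0 without WT 2 and without DKO 4. Magt1 was -0.021 without WT 3 (up to 0.19 with another library left out), and Slc25a23 was -0.014 with total counts and -0.076 to 0.12 with 1 library left out, below 0 without WT 1 and without DKO 3. The number of all genes called was 153, against 554 without a low-count filter, 826 by DESeq2, 328 with the replicate block, 71 with the Xist term, 77 by limma with either pseudocount, 11 by limma on all genes above 0, and 21 to 335 with 1 library left out. Of the other magnesium genes 1 was called without a low-count filter, by DESeq2 and with the replicate block, each time Zdhhc13, and 0 to 3 with 1 library left out, the 3 being Tmem94, Arl15 and Fxyd2 without WT 2. Stim2 was not called with the Xist term (log2 fold change -1.13) or by limma on all genes above 0 (-1.31), and was from -1.18 to -0.96 with 1 library left out, where it lost its call without WT 3, DKO 1, DKO 3 or DKO 4 (edgeR adjusted p up to 0.0987). By CPM per kilobase of exon Magt1 ranked 5, Slc41a1 6, Cnnm3 7 and Mrs2 8 in WT, in place of 6, 8, 5 and 7. Same-numbered libraries had correlations of their deviations of 0.19 (number 1) and -0.01 (number 3), and nothing in the labels pairs them, so the replicate block is given as an alternative only. WT 2 and DKO 4 have no same-numbered library in the other group, so under the block the comparison rests on numbers 1 and 3. Depth limits Trpm6 and Cnnm1, with at most 17 and 4 counts per library.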
